A study of Danio rerio with 40 samples.

Results

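The genes described here are those that make, pack, clear and break down GABA, the main inhibitory transmitter of the vertebrate brain. The 8 genes gad1a, gad1b, gad2, slc32a1, abat, slc6a1a, slc6a1b and slc6a11b were chosen by name, from the gene symbols that the authors' annotated table pairs with Ensembl gene IDs, and not by any measured value. They are 8 of the 32520 genes in the count tables. All 8 are listed as protein-coding, and all 8 passed the filter on low counts that left 16875 genes for testing.

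The samples were brains of wild-type (WT) AB zebrafish about 1 year old, 20 females and 20 males, each a separate fish. Within each sex, 10 fish had received the Control diet and 10 a dry feed with 60% gum Arabic (GA), a dietary fibre, for 2 weeks in mixed-sex tanks. Poly-A RNA was sequenced, and the count columns are named by fish number and held in separate tables for females and males. Sex is therefore the comparison made here, and it takes both diets together. No column name pairs a fish with its diet, so diet was not analysed here and its part in the spread between fish was not tested. Fish are numbered within each sex (female 1 to 20, male 1 to 20), and the numbers only name them.

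GABA is made from glutamate by glutamate decarboxylase and loaded into synaptic vesicles by a transporter that sits in the vesicle membrane. After release it is taken back into neurons and astroglia by sodium-dependent transporters of the plasma membrane, and GABA transaminase then breaks it down in mitochondria. Zebrafish keep more than one copy of several of these genes, a legacy of the genome duplication in the ancestor of teleost fish, and the letters a and b mark such pairs.

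Depth ran from 9392146 to 19131418 estimated counts per fish, with a median of 13950594. Levels are given as CPM, the count of a gene divided by the library size and brought to a common total, with the library size scaled by the trimmed mean of M-values (TMM) method, and 3 counts, taken as the floor, equalled 0.157 to 0.319 CPM without that scaling. The neuronal marker snap25a was found in every fish, at 3219 to 5427 CPM. Levels of other tissues' markers were uneven: the summed level of 4 hemoglobin genes ran from 200.4 to 58782 CPM, and that of 3 skin genes from 4.47 to 7997 CPM. Genes of the mitochondrial genome took 6.32% to 28.7% of counts. By a fence of 1.5 interquartile ranges, male 2 stood apart in depth, male 4 and male 9 in the share of the top gene, and female 1, female 15 and male 7 on the first 2 principal components of log2(CPM + 1). A code in the count column names, read here as the flow cell, put 3 fish on a second one: female 18, male 4 and male 11. CPM values carry the length of each transcript, and transcript lengths were not used here, so the levels of different genes are not ranked against each other.

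None of the 8 genes passed the test between the sexes, while single fish differed widely. Among the 5 genes counted in every fish, the highest level was 13.0 times (gad1b) to 66.5 times (abat) the lowest. Female 1, apart on the principal components, was the lowest fish in all 5. It had 121 CPM of gad1b and 8.03 CPM of abat, where the next lowest fish had 203 CPM (male 3) and 19.4 CPM (male 4). In these brain samples fewer cells of a type, less RNA per cell and a different share of brain regions cannot be told apart. The share of each region in a sample was not known. Levels of telencephalon genes were uneven: foxg1a had no count in 14 fish and reached 74.5 CPM, and eomesa ran from 3.32 to 266 CPM. The part of brain regions in the levels of the 8 genes was not tested. The decarboxylase genes gad1b and gad2, the vesicle transporter slc32a1 and the reuptake transporter slc6a1b varied closely together from fish to fish. The transaminase abat went most closely with slc6a11b, and in slc6a11b, slc6a1a and gad1a a few fish were far above the rest. The 8 genes are described below as these 4 and the other 4, an arrangement made after their values were seen and not a sharp division, since abat and slc6a1a also went with the first 4.

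The 3 decarboxylase genes encode the enzymes that make GABA: gad1a and gad1b are the zebrafish copies of the gene for GAD67, and gad2 encodes GAD65. The gene gad1b (ENSDARG00000027419) lay at 121 CPM in the lowest, 941 in the median and 1489 in the highest female. In males the lowest, median and highest values were 203, 542 and 1570 CPM. The ranges of the sexes overlapped almost entirely, with female 1 lowest and male 9 highest of all 40 fish. Females averaged 844 ± 361 CPM (SD, n = 20) and males 710 ± 394 CPM (SD, n = 20), a log2 difference, female minus male, of 0.25 (SE 0.24, 95% interval -0.24 to 0.74). In edgeR's quasi-likelihood test with Benjamini-Hochberg adjustment over 16875 genes, the adjusted p was 1.00. Of the 20 females, 14 lay above the male median, and of the 20 males, 6 lay above the female median.

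The gene gad2 (ENSDARG00000015537) ran from 67.5 CPM through a median of 722 to 1293 CPM in females. In males it ran from 81.5 CPM through 641 to 1231 CPM. Female 1 and male 14 were the lowest of the 40 fish and female 8 and male 5 the highest, so each sex reached both ends. The highest level was 19.2 times the lowest. Females exceeded males by a log2 difference of 0.20 (SE 0.28, interval -0.36 to 0.76), with an adjusted p of 1.00 by the same edgeR test.

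The other copy, gad1a (ENSDARG00000093411), was barely detected. It had no count in 12 of the 40 fish and under 10 counts in 20. Its CPM ran from 0 through a median of 0.634 to 7.17 in females and from 0 through 0.702 to 7.80 in males. The 4 highest fish, male 11, female 12, female 11 and male 5, held 49.6% of its summed CPM, where equal levels would give 10% and the 4 highest fish in abat held 27.1%. Both sexes thus had a few fish with the gene well above the floor and many at or near it. Its log2 difference was 0.15 (SE 0.73, interval -1.32 to 1.61), and its edgeR adjusted p was 1.00. Without female 12 it was -0.20 and without female 11 it was -0.16, so the sign rested on single fish. Without male 11 it was 0.59.

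Packing depends on slc32a1 (ENSDARG00000059775), which encodes VGAT, the transporter that fills vesicles with GABA and glycine. In females it lay at 36.2 CPM in the lowest fish, 453 in the median and 711 in the highest. In males the same values were 77.5, 353 and 812 CPM. Female 1 and male 14 were again at the bottom, and male 7 and male 9 were at the top. For slc32a1 the log2 difference was 0.24 (SE 0.26, interval -0.27 to 0.76), with an edgeR adjusted p of 1.00.

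Breakdown depends on abat (ENSDARG00000006031), the GABA transaminase of mitochondria. Its level ran from 8.03 CPM through a median of 133 to 534 CPM in females and from 19.4 CPM through 126 to 384 CPM in males. The highest fish, female 12, was 66.5 times the lowest, female 1, and the medians of the sexes lay within 10 CPM of each other. The sexes differed by a log2 value of 0.22 (SE 0.35, interval -0.50 to 0.93), with an edgeR adjusted p of 1.00. It was 0.03 without female 12 and 0.36 without male 11.

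Reuptake was covered by 3 genes. All 3 encode GABA transporters of the plasma membrane: slc6a1a and slc6a1b are a zebrafish pair, and slc6a11b is related to the mammalian gene of GAT-3, which is mostly astroglial. In the RefSeq gene table, which is of another assembly and was used for gene order alone, slc6a1b and slc6a11b lie on the same chromosome with 1 gene between them.

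The gene slc6a1b (ENSDARG00000039647) lay at 123.1, 844 and 1505 CPM in the lowest, median and highest female. In males it lay at 145, 567 and 1910 CPM. Of the 20 females, 15 were above the male median, yet the 2 highest fish of all, male 9 and male 7, were males. The log2 difference was 0.29 (SE 0.28, interval -0.28 to 0.85), with an edgeR adjusted p of 1.00.

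Its copy slc6a1a (ENSDARG00000045944) had no count in 3 fish, female 1, male 10 and male 14. It ran from 0 through a median of 9.07 to 99.5 CPM in females and from 0 through 4.61 to 80.4 CPM in males. Female 12, female 11, male 11 and male 5 were the 4 highest, as for gad1a, and held 51.3% of the summed CPM. The log2 difference was 0.29 (SE 0.64, interval -1.01 to 1.59), with an edgeR adjusted p of 1.00. Without female 12 it was -0.09, without female 11 it was -0.08, and without male 11 it was 0.67.

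The gene slc6a11b (ENSDARG00000087981) had no count in female 1 and male 17. Female levels were 0, 4.84 and 60.8 CPM in the lowest, median and highest fish, and male levels were 0, 5.97 and 31.96 CPM. Females had the higher mean and males the higher median, and female 11, female 12 and male 11 lay well above the other fish. Its fitted log2 difference was 0.48 (SE 0.53, interval -0.58 to 1.54), with an edgeR adjusted p of 1.00. It fell to 0.06 without female 11 and rose to 0.75 without male 11.

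**Figure D1:**
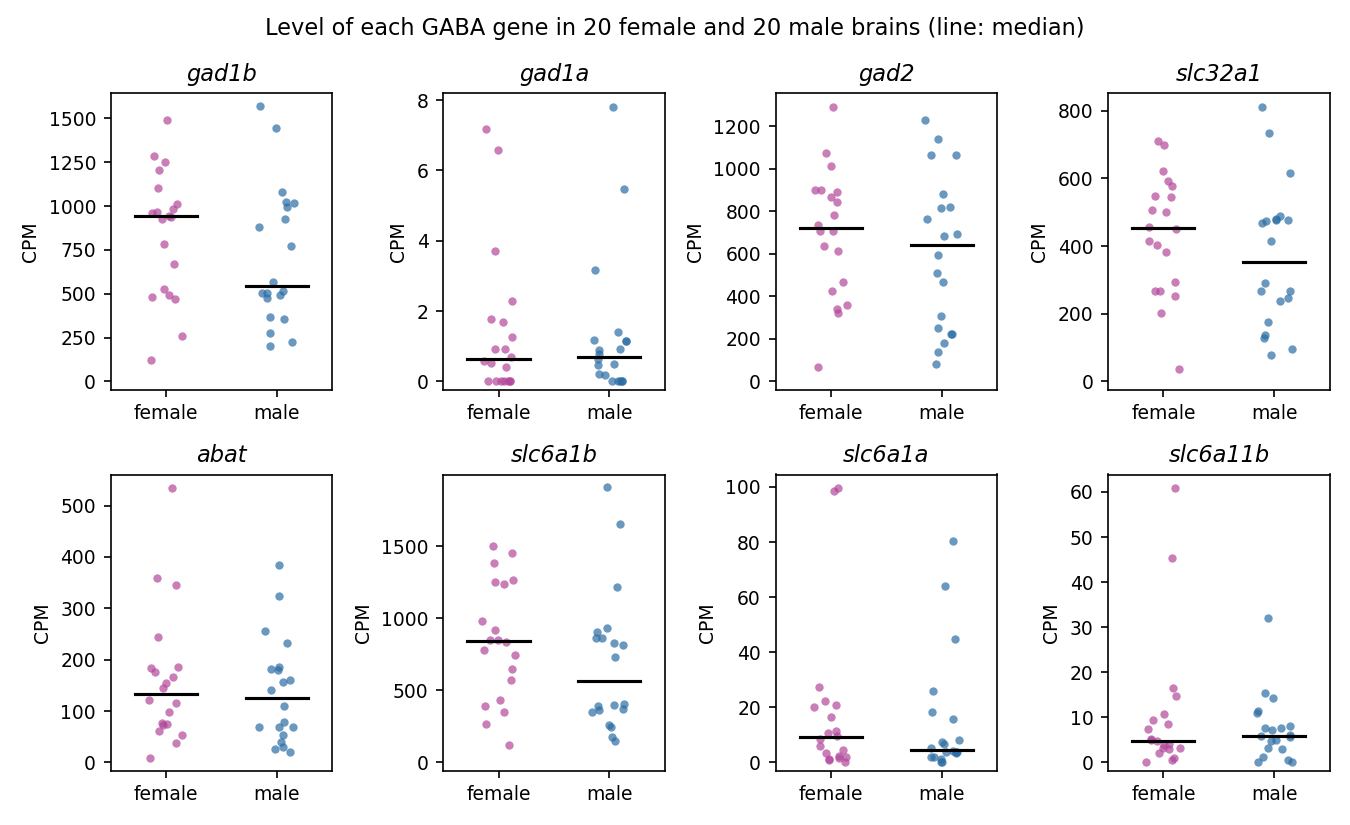
Level of each gene in CPM (vertical axis, linear, each panel with its own scale) in 20 females and 20 males, 1 point per fish, with a line at the median of each sex. The sexes overlap in every panel, and in gad1a, slc6a1a and slc6a11b a few fish of both sexes lie far above the rest.

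The fitted log2 difference was positive for all 8 genes, from 0.15 to 0.48, and stayed so with RLE size factors and DESeq2, while with limma-voom that of gad1a was -0.06. Of all genes tested 49.1% had a positive value, and the median was -0.003. These 8 values are not 8 separate findings, because the genes vary together over the same fish. At an adjusted p under 0.05, 0 of the 8 genes and 0 of 16875 genes were called, a background of 0%, and 0 of the 8 and 374 of all genes had an unadjusted p under 0.05 in edgeR. DESeq2 and limma-voom also called 0 genes. At an unadjusted p under 0.05 there were 621 of 27947 genes in DESeq2, run without that filter. In limma-voom there were 279 of 16875. The intervals show what the data leave possible: for gad1b, gad2, slc32a1 and slc6a1b the lower bounds were 0.779 to 0.847 times and the upper bounds 1.67 to 1.81 times the male level, while for gad1a the interval ran from 0.401 to 3.05 times. Without female 1, female 15 and male 7, the fish apart on the principal components, the differences of these 4 genes were 0.43, 0.37, 0.45 and 0.51, and for slc32a1 edgeR gave p = 0.0490 before and 0.694 after adjustment, in a fit where 1192 of 16902 genes had an unadjusted p under 0.05. Without female 1 alone that count was 660. Of the fish left out, female 1 was the lowest of all fish in slc32a1 and male 7 the highest. Leaving out a low female and a high male raises the difference. The components that set these fish apart also followed slc32a1 itself, with r = 0.60 for the first and 0.73 for the second.

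**Figure D2:**
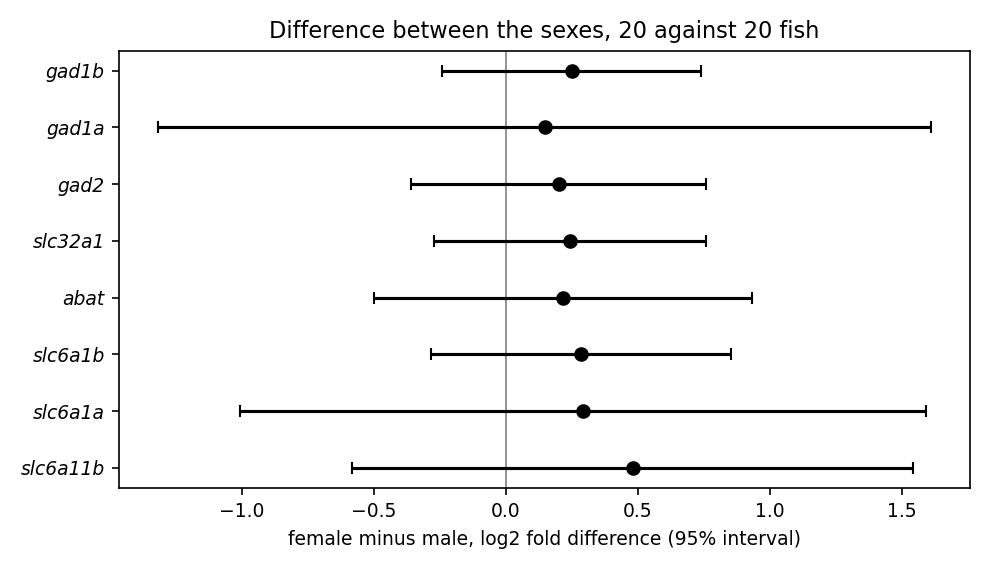
Female minus male log2 fold difference of each gene (horizontal axis) from edgeR's quasi-likelihood fit, with 95% intervals as bars, 20 against 20 fish. Every interval spans 0, and those of gad1a, slc6a1a and slc6a11b are the widest.

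The spread between fish was wide for all 8 genes, and it differed between them. The coefficient of variation over 40 fish was 48.8% for gad1b, 50.9% for gad2, 48.1% for slc32a1 and 58.6% for slc6a1b. It was 76.8% for abat, 133% for slc6a11b, 149% for gad1a and 153% for slc6a1a. In edgeR's terms the biological coefficient of variation ran from 0.526 for gad1b to 0.603 for slc6a1b among the first 4 genes, above 53.4% and 59.8% of genes tested, where the median gene had 0.489. That of gad1a, 1.63, exceeded the value of 99.1% of genes, that of slc6a1a, 1.36, the value of 97.4%, and that of slc6a11b, 1.11, the value of 91.6%. These 3 genes also had the fewest counts, with means of 21.3, 271 and 147 per fish.

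The ratios between partner genes did not pass a test between the sexes. For 6 ratios on the log2(CPM + 1) scale, a two-sided permutation test with 100000 resamples gave an adjusted p of 0.797 for each, and differences of -0.27 to 0.06. Some ratios varied much less over fish than the levels themselves. The log2 ratio of slc32a1 to gad2 had an SD over fish, centred on the mean of each sex, of 0.32, where slc32a1 alone had 0.94 and gad2 alone 1.03. The ratio of gad2 to gad1b had an SD of 0.48, against 0.85 for gad1b. The ratio of slc6a11b to slc6a1b, in contrast, had an SD of 1.42, larger than those of slc6a11b (1.37) and slc6a1b (0.97). The ratio of abat to gad2 lay between, at 0.82.

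**Figure D3:**
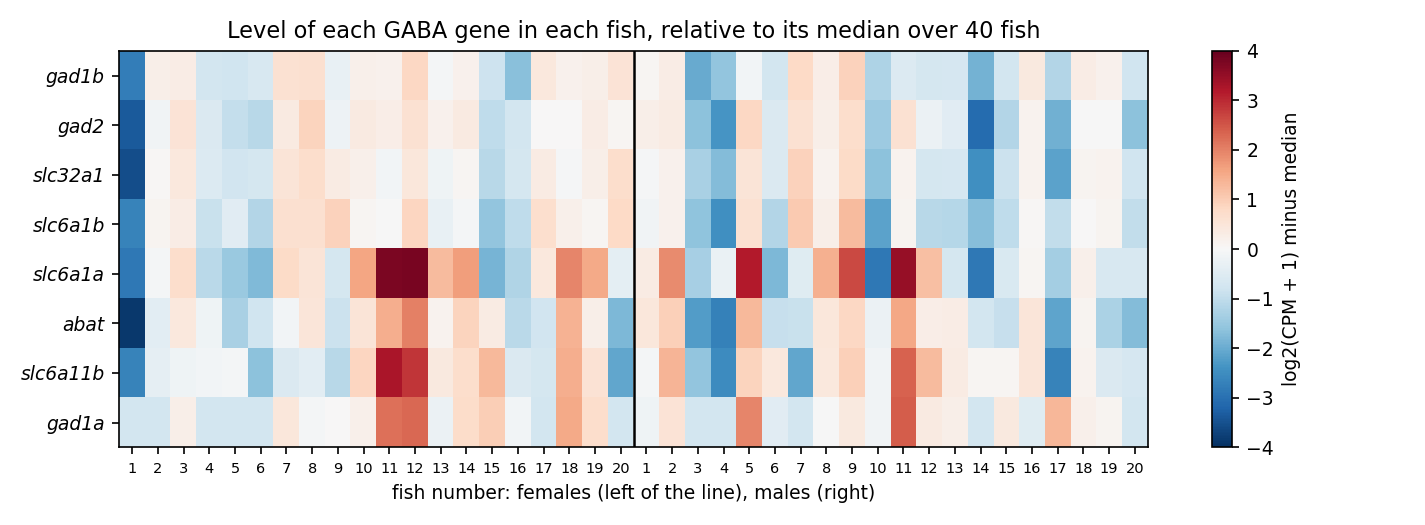
Level of each gene in each fish as log2(CPM + 1) minus the median of that gene over 40 fish (colour; values past 4 in either direction are shown as 4), with females left of the line and males right of it. Female 1 is the lowest fish in gad1b, gad2, slc32a1, slc6a1b and abat, and females 11 and 12 and males 5 and 11 are high in slc6a1a and gad1a.

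The correlation of log2(CPM + 1) over the 40 fish, centred on the mean of each sex, was computed for all 28 pairs of the 8 genes. A permutation test within sex with 100000 resamples gave an adjusted p under 0.05 for 24 pairs by Pearson's r and for 22 by Spearman's rho. These relations must be read against a wide background. Of 12372 other genes with a mean count of 50 or more per fish, 21.2% had an r over 0.5 with gad2 and 16.9% an r under -0.5, so large groups of genes shifted together between these samples. The share of other gene pairs that would pass the same test was not computed. For each member of a pair, the share of genes with that mean count and a lower r ran from 62.9% to 100% over the 28 pairs. Within gad1b, gad2, slc32a1 and slc6a1b it ran from 98.1% to 100%. For gad1b with slc6a11b, among the 24, it was 75.3% and 74.7%.

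The genes gad1b, gad2, slc32a1 and slc6a1b were the most closely tied. gad2 and slc32a1 had r = 0.95 (rho = 0.91, permutation p = 1e-05 for both, the smallest that 100000 resamples can give), and 99.9% of the genes with that mean count had a lower r with gad2. gad1b and slc32a1 had r = 0.92 (rho = 0.93), and none of those genes had a higher r with gad1b. slc6a1b had r = 0.91 with slc32a1, 0.90 with gad1b and 0.87 with gad2. Over the 6 pairs of these 4 genes r ran from 0.87 to 0.95, from 0.87 to 0.96 within females and from 0.86 to 0.95 within males. Without the 2 fish farthest from the median of the first gene it ran from 0.85 to 0.92, and without the 6 fish that stood apart in depth, top gene or principal components from 0.77 to 0.92. All 6 had an adjusted permutation p of 1.75e-05 (n = 40). Without the second flow cell their lowest r was 0.85. That flow cell held 3 fish, too few for a value of its own.

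The other 4 genes were tied less closely. abat and slc6a11b had r = 0.87 (rho = 0.87, adjusted permutation p = 1.75e-05 for r), and r was 0.87 within females and within males alike. slc6a1a had r = 0.75 with abat, 0.71 with gad1a and 0.68 with slc6a11b. gad1a had r = 0.67 with abat and 0.68 with slc6a11b. Without female 11, female 12, male 5 and male 11, the 4 fish highest in slc6a1a, r of abat with slc6a11b was 0.85, while that of gad1a with slc6a1a fell from 0.71 to 0.45. Without these 4 fish slc6a1a had r = 0.76 with gad2, 0.74 with gad1b and 0.70 with slc32a1, beside 0.66 with abat and 0.50 with slc6a11b. Among the 6 pairs of these other 4 genes, only gad1a with slc6a11b within males, at r = 0.46, missed an adjusted p under 0.05 within a sex, at 0.0506 by permutation.

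Between the first 4 genes and the other 4, r ran from 0.25 to 0.75. The gene slc6a1a had r of 0.65 to 0.75 with each of the first 4, and abat had 0.55 to 0.75, where its r of 0.75 with gad2 was above its 0.67 with gad1a. The pair slc6a1b and slc6a11b had r = 0.30 (rho = 0.17), with an adjusted permutation p of 0.0643, and r was 0.09 without the 2 farthest fish. Of the paired copies, slc6a1a and slc6a1b had r = 0.66, and gad1a and gad1b had r = 0.28 with an adjusted permutation p of 0.0939. The difference between these values of r was not tested, and gad1a had under 10 counts in 20 fish.

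**Figure D4:**
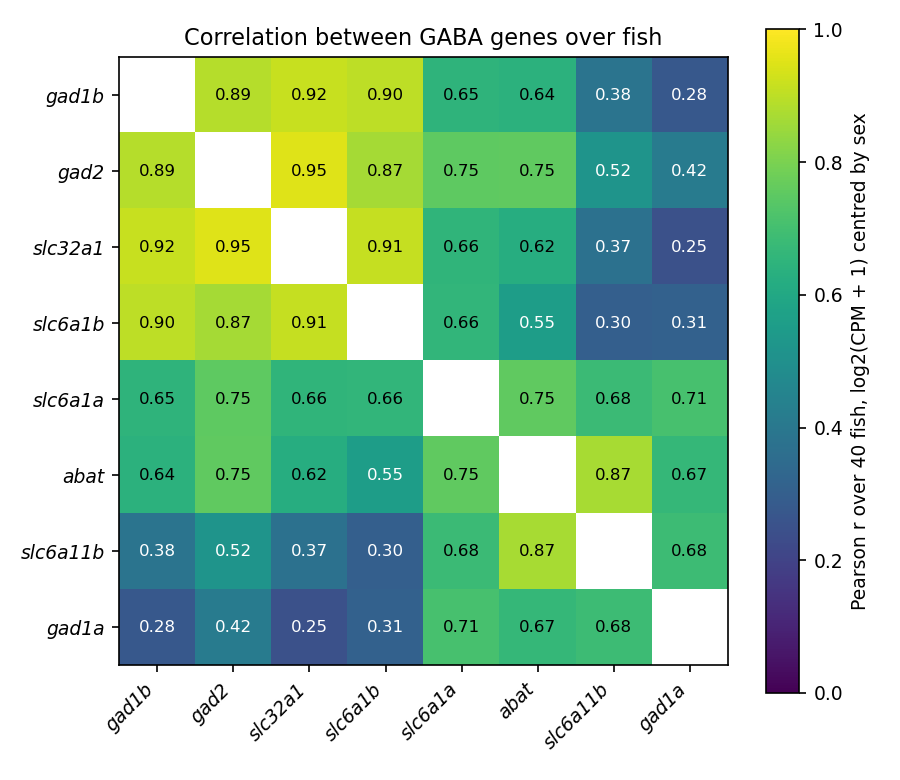
Pearson's r between each pair of the 8 genes (both axes; colour and number) over 40 fish, from log2(CPM + 1) centred on the mean of each sex. The block of gad1b, gad2, slc32a1 and slc6a1b holds r of 0.87 to 0.95, and abat with slc6a11b reaches 0.87.

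**Figure D5:**
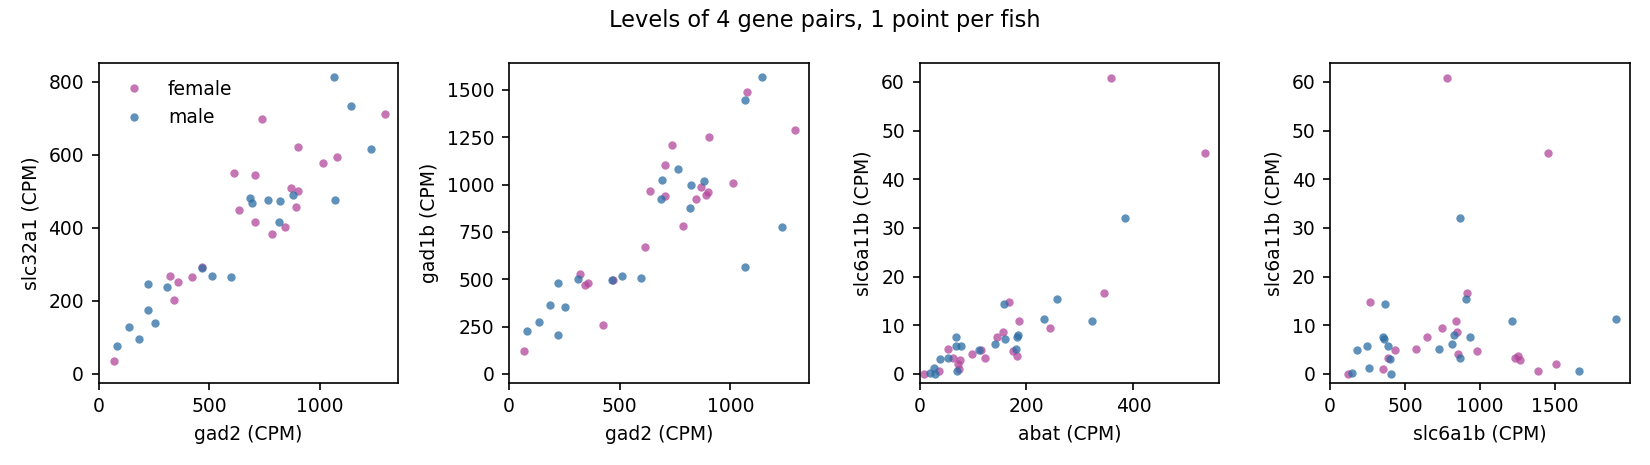
CPM of 4 pairs of genes (linear axes, 1 point per fish, colour by sex). slc32a1 follows gad2 over the whole range (r = 0.95), slc6a11b follows abat (r = 0.87) with 3 high fish, and slc6a11b does not line up with slc6a1b (r = 0.30). The values of r are of log2(CPM + 1) centred on the mean of each sex, not of the plotted CPM.

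The members followed the first or the second main axis of variation of the whole data set, or both. The first principal component held 27.8% of the variance and the second 16.2%. abat had r = 0.95 and slc6a11b r = 0.91 with the first, while slc6a1b had r = 0.80 and slc32a1 r = 0.73 with the second and gad1b r = 0.67. The axes were not separate by gene: gad2 had r = 0.75 with the first and 0.60 with the second, and slc32a1 (0.60) and gad1b (0.57) also followed the first. With the second, slc6a1a had r = 0.30, abat 0.06, gad1a -0.09 and slc6a11b -0.23. The sign of a component is arbitrary, and the first was turned to rise with abat and the second with slc6a1b. These components were computed from log2(CPM + 1) centred on the mean of each sex, with the 8 genes included, so these values are a description.

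Depth moved with 2 members. Of 24 relations of the 8 genes with log2 depth, mitochondrial share and top-gene share, 2 passed an adjusted permutation p of 0.05 by Pearson's r: slc6a11b with depth (r = 0.55, adjusted p = 0.00696) and abat with depth (r = 0.50, adjusted p = 0.0125, permutation). By Spearman's rho they were 0.38 and 0.37, each with an adjusted permutation p of 0.149. Without the 2 fish farthest from the median depth, r was 0.42 and 0.39. For gad2 and depth r was 0.37 (adjusted permutation p = 0.168), and none of the 8 genes passed against the mitochondrial share, where r lay between -0.24 and 0.13, or against the top-gene share. The part of depth in the levels of abat and slc6a11b was not tested further.

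The summed levels of some marker lists moved with gad2 or abat, and those of others did not. Genes within a list often differed. For gad2 and abat, the summed level of each of 16 marker lists was compared over fish, 32 relations in all. The 6 astroglia genes measured out of 7, which summed to 1241 to 6907 CPM in females and 1339 to 6120 CPM in males, had r = 0.82 with gad2 and 0.85 with abat (adjusted permutation p = 0.000107 for both). Markers of glutamate neurons, 3 of 4 tested and slc17a7b at 0 in the median fish, summed to 127 to 377 CPM in females and 89.8 to 426 CPM in males. The sum had r = 0.61 with gad2 and 0.87 with abat, but its members differed: slc17a6b had r = 0.79 with gad2 and slc17a7a had r = -0.17. The 8 markers of all neurons summed to 6717 to 10951 CPM in females and 8162 to 11046 CPM in males and had r = -0.43 with abat (rho = -0.50, adjusted permutation p = 0.0263 for r) and -0.35 with gad2 (rho = -0.47, adjusted permutation p = 0.0786 for r and 0.00715 for rho). Single genes of that list ran from r = -0.75 (snap25b) to 0.91 (stmn2b) with gad2. The 4 cerebellar granule cell genes summed to 463 to 6219 CPM in females and 207 to 7707 CPM in males, and their sum moved the other way, with r = -0.65 with gad2 (rho = -0.80, adjusted permutation p = 0.00024 for r) and -0.45 with abat. Within that list neurod1 had r = -0.68 and zic1 -0.63 with gad2, while cbln1 had r = 0.15. The 4 Purkinje cell genes summed to 223 to 4685 CPM in females and 236 to 4601 CPM in males, with r = -0.30 with gad2 (adjusted permutation p = 0.128) and rho = -0.46 (adjusted permutation p = 0.00715). For gad2 the r with the sum of granule cell genes was -0.66 within females and -0.64 within males, and -0.58 without the 6 fish apart. Hypothalamus markers, 4 of 5 tested, ran from 1.597 to 1378 CPM in females and 0.914 to 714 CPM in males, with r = 0.51 with gad2. With abat their sum had r = 0.30 (adjusted permutation p = 0.128) and rho = 0.39 (adjusted permutation p = 0.032). At its high end that sum was mostly oxt, which reached 1292 CPM, where avp reached 74.6 CPM. With gad2, oxt had r = 0.43, avp 0.66, hcrt 0.48, nkx2.4b 0.38 and agrp 0.35, and agrp had no count in 18 fish. Microglia markers, of which 2 of 6 were tested and p2ry12 was at 0 in the median fish, summed to 38.9 to 334 CPM in females. In males they summed to 55.5 to 450 CPM. The sum had r = 0.60 with gad2 and 0.54 with abat (adjusted permutation p = 0.00064 and 0.00192). That sum was mostly apoeb, with a median of 138 CPM and r = 0.61 with gad2. With gad2, c1qa had r = -0.04, c1qb 0.15, csf1ra 0.15, p2ry12 0.23 and mpeg1.1 0.47. Blood, skin, muscle, retina and pituitary lists had r with gad2 between -0.31 and 0.30, and none passed by either measure. The oligodendrocyte list had r = 0.14 with gad2 and -0.01 with abat, and the telencephalon list, 2 of 4 tested, -0.14 and 0.002. The oligodendrocyte sum was mostly mbpa, with a median of 8439 CPM and r = 0.07 with gad2. With gad2, mpz had r = 0.68, plp1a 0.65, plp1b 0.65, mag 0.07 and mbpb -0.15. In the telencephalon list, eomesa had a median of 31.3 CPM and r = -0.36 with gad2. There tbr1b had 0.62, foxg1a 0.44 and emx3 0.32. The tectum and midbrain list had 0.32 and 0.17, and the hindbrain and cord list, 2 of 5 tested, -0.03 and -0.08. With gad2, en2a had r = 0.50, pax7a 0.38, otx2b 0.32 and en2b -0.11. Of the hindbrain and cord genes, egr2b had r = 0.61 with gad2, hoxb3a -0.26, hoxa2b -0.26, hoxb5a -0.17 and hoxc6b -0.13. The genes hoxb5a and hoxc6b were at 0 in the median fish. The sums of the oligodendrocyte, telencephalon, midbrain and hindbrain lists did not pass by either measure. The part of any of these marker lists in the spread of the GABA genes was not tested.

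Other genes of the GABA pathway, from a list of 15 of which 12 were tested, gave 0 called in either direction between the sexes. Their median log2 difference was 0.08, beside -0.003 for all genes, and 7 of 12 values were positive. Over fish this list was mixed. aldh5a1, which completes the breakdown of GABA after abat, had r = 0.87 with abat and 0.51 with gad2. The chloride exporter gene slc12a5b, which sets how neurons respond to GABA, ran from 0 to 122 CPM and had r = 0.84 with abat. The chloride importer gene slc12a2 ran from 81.8 to 273 CPM and moved against gad2, at r = -0.86. glula, the glutamine synthetase of astroglia and also a member of the astroglia list, had r = 0.83 with gad2. These values describe the same 40 fish and carry no test of their own.

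Regulators of GABA neurons, 17 of 19 tested, also gave 0 calls between the sexes. All 17 fitted differences were positive, with a median of 0.61 by TMM, 0.62 by RLE size factors and 0.57 by limma-voom, and 4 of the 17 had an unadjusted p under 0.05 in edgeR, where 49.1% of all genes had a positive value and 374 of 16875 that p. Some marker lists of other regions and tissues also had positive values throughout, with medians of 1.24 for hypothalamus (4 of 4 tested genes) and 1.74 for retina (2 of 2) and 3 of 3 muscle genes positive, while the medians of the granule cell and skin lists were -0.31 and -1.92. These lists gave 0 calls, and their part in the values of the regulators was not tested. Among the 17 regulators the largest difference, 2.05, was that of lhx8a, with a median of 0.318 CPM and no count in 15 fish. sp8a (1.47) and arxa (1.34) had medians of 0.964 and 0.622 CPM. dlx5a, with a median of 9.25 CPM, had 0.82. gata3 and tal1, with the highest medians of the list (106 and 71.2 CPM), had 0.18 and 0.19. The 17 values come from the same fish and are not separate findings. The summed level of the regulators ran from 103 to 635 CPM in females and from 111 to 676 CPM in males. The median of that sum was 415 CPM in females and 321 CPM in males, and the sexes overlapped over nearly the whole range. Genes with high levels, such as gata3 and tal1, weigh most in the sum. It therefore says little about lhx8a, sp8a and arxa, with their low medians. The median r of the 17 regulators was 0.60 with gad2, 0.53 with slc32a1 and 0.28 with abat. Among them gata2a, gata3 and tal1, regulators of midbrain and hindbrain GABA neurons, had r of 0.75, 0.74 and 0.74 with gad2. In the same list pax2a had r = -0.23 with gad2, the lowest of the 17. ptf1a, which was not tested between the sexes, had r = -0.10. The forebrain regulators dlx1a, dlx2a, dlx5a and dlx6a had r of 0.56, 0.64, 0.63 and 0.69 with gad2.

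Peptides and calcium-binding proteins of GABA neurons, 10 of 13 tested, gave 0 calls and a median log2 difference of 0.17. Their median r was 0.82 with gad2, 0.80 with slc32a1 and 0.35 with slc6a11b. npy, the gene of neuropeptide Y, ran from 0.762 to 438 CPM and had r = 0.89 with gad2. calb2b, which encodes a calretinin, had r = 0.93 with gad2 and the somatostatin gene sst1.1 had r = 0.89. The list was split, with r over 0.5 with gad2 for 6 of the 10 genes. With gad2, pvalb6 had r = 0.48, calb1 0.35 and erbb4a -0.17. pvalb7, a parvalbumin gene of Purkinje cells, which are themselves GABA neurons, had r = 0.12, and the other genes of the Purkinje list had r of -0.20 (ca8), -0.43 (aldoca) and -0.46 (itpr1b).

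The genes whose pattern over the 40 fish was most like that of each member were taken among the genes with a mean count of 50 or more. For gad2 they were lrrtm2 (r = 0.96), nxph1 (0.95) and syngr3b (0.95), and for slc32a1 they were ankrd46b (0.97), znrf1 (0.97) and necab2 (0.96). For gad1b they were TMEM132C (r = 0.91), si:dkeyp-9d4.3 (0.90) and syt9b (0.90), and for slc6a1b they were atf5b (0.97), lef1 (0.97) and lmo3 (0.97). Of the other 4 genes, abat was most like ywhag1 (r = 0.95), lrfn4b (0.94) and caly (0.93), and slc6a11b most like ncam1a (0.95), rab11fip4a (0.92) and ppp2r2bb (0.92). For slc6a1a they were shox (r = 0.94), slc12a5b (0.92) and gfra4a (0.92), and for gad1a they were nova1 (0.84), doc2d (0.83) and patj (0.83). No gene was named for more than 1 member.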

How the data were processed

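RNA of 40 zebrafish brains was sequenced. The authors used the nf-core/rnaseq pipeline with GRCz11 as the reference build, as the study's methods and the labels state. The deposited gene tables hold the authors' Salmon estimated counts, which need not be whole and were rounded here. The study's methods name a directional library kit, while the deposited sample sheet sets the strand as unstranded. Counts were used as deposited, and under that setting reads of overlapping antisense genes cannot be told apart. Non-whole values (by more than 0.001), which can arise where reads are shared between transcripts of several genes, occurred in 15 fish for gad1b, in 4 for gad1a and gad2, in 3 for slc6a1b, in 2 for slc32a1 and abat, and in none for slc6a1a and slc6a11b. The authors' deposited comparison table gives a base mean, recorded as a score, which for all 8 genes lay within 2.15e-08% of the mean size-factor-normalised count of these 40 columns. Its fold changes and p-values for a comparison were not used. The sex of a column was taken from the table that holds it. The 80 columns of 2 combined count tables were not used.

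Counts were filtered (filterByExpr), scaled by TMM and compared between 20 females and 20 males with edgeR 4.0.16 (quasi-likelihood, robust, adjusted p 0.05). Standard errors were derived from the F statistic. The method was tested on simulated data. Alternatives were RLE size factors, DESeq2 1.42.0, limma-voom (limma 3.58.1), other filters and leaving out fish. Correlations and ratios used a pseudocount of 1, and permutations used numpy 2.4.6 in Python 3.11.15. Depth per fish was 9392146 to 19131418 counts. The floor of 3 counts covers counting error only. The p-values set each difference or relation against the spread between these fish, taken as independent of each other. Fish shared tanks, the count columns name no tank, and the part of the tank was not tested. Members and lists were chosen with earlier results of these data known. All 8 members are named, list genes are named only where they help to describe a list and were then chosen after their values were seen, and for each member the 3 most alike genes are named.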

Additional observations from a re-analysis of the deposited data

How the results depend on the processing

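The count of genes that differed between the sexes was 0 under every alternative run, and no member passed the threshold under any of them. With limma-voom gad1a was -0.0572, slc6a1a 0.74, gad2 0.34 and slc6a11b 0.17, and without the second flow cell gad1a was 0.40 and slc6a1a 0.59. Leaving out each fish in turn gave log2 differences of -0.20 to 0.59 for gad1a, -0.0886 to 0.67 for slc6a1a, 0.06 to 0.75 for slc6a11b, 0.03 to 0.36 for abat, 0.19 to 0.34 for gad1b, 0.13 to 0.28 for gad2, 0.19 to 0.34 for slc32a1 and 0.22 to 0.42 for slc6a1b. The log2 ratio of slc6a1a to slc6a1b, female minus male, went from -0.11 to 0.10 without the fish apart in depth or top gene and to 0.0641 without the second flow cell. Leaving out the second flow cell, the fish apart on the principal components, or the 4 fish highest in slc6a1a was chosen after seeing the data. The stricter filter removed gad1a, so it has no value there. The weaker correlations, gad1b and slc32a1 with slc6a11b (r = 0.38 and 0.37), missed an adjusted permutation p of 0.05 by Spearman's rho, within either sex, and without the 2 farthest fish, and gad1a with gad2 (r = 0.42) missed it within females (0.0885 by permutation), within males (0.0686) and without the 4 fish highest in slc6a1a (0.0973). Levels per length and another count table in place of those split by sex were not run, since no transcript lengths were at hand and columns of the other tables show no group. No paired analysis was made, because each sample was a separate fish and the count columns name no tank. Depth limits gad1a most, with under 10 counts in 20 fish. The causes of these shifts were not tested.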
